A study of Homo sapiens with 12 samples.

Results

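The interferon-stimulated genes described here are 52 genes named by symbol, each matched to 1 Ensembl gene of the 62656 in the deposited count table. The list was given by name with no measured value in its rule, but it was drawn up with earlier results of these data known. RNA was sequenced from 12 libraries of the human colorectal cancer lines HCT116 and LoVo, with 3 libraries in each of 4 groups. The groups were HCT116 overexpressing SLERT, a long non-coding RNA (SLERT OE), HCT116 controls whose columns are headed as empty vector, LoVo with knockdown of SLERT (SLERT KD, columns headed as a short hairpin), and LoVo controls whose columns are headed as a negative-control hairpin. No interferon, virus or other stimulus is named in the labels, so every level below is that of cells with no stated stimulation. The design text places the work in a study of liver metastasis, with SLERT raised in HCT116 and lowered in LoVo. Separate cultures are not named in the labels, and p-values therefore reflect no more than the spread among these libraries, which may be technical.

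As background, type I and type III interferons are secreted proteins that bind surface receptors and activate the kinases JAK1 and TYK2, which phosphorylate STAT proteins. Of these, STAT2 works with IRF9 in a complex that binds a short repeat of GAAA in the promoters of interferon-stimulated genes. The products of these genes sense or cut viral RNA, block viral entry and budding, attach the ubiquitin-like protein ISG15 or ADP-ribose to other proteins, and cut antigens for presentation. Interferon gamma acts through its own receptor and induces IRF1, guanylate-binding proteins, immunoproteasome subunits and MHC class II genes. Many tumour lines express part of the set without added interferon.

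The GAAA repeat was looked for in the promoters of the members, which were chosen by name. As the repeat is described above for interferon-stimulated genes as a class, a high share follows from the names and is no test of them. RefSeq windows on GRCh38.p14, from 250 bases before to 50 bases after an annotated start, were at hand for 42 of the 52 members. GAAA, any 2 bases and GAAA again, or the same read from the other strand (TTTC, any 2 bases and TTTC), stood in 29 of those 42 genes (69.0%), against 4.38% of all 27305 genes in the table. Stretches are printed first from members that hold the letters and were called lower in the KD-labelled LoVo libraries, taken by smallest p. Members with no match or no window could not be printed, so OASL, with the smallest p there, is not shown. The matches are in capitals and overlap in ISG15.
IFIT1, chr10:89392497-89392539, plus strand: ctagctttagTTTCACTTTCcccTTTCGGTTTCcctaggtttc
IFIT3, chr10:89327831-89327894, plus strand: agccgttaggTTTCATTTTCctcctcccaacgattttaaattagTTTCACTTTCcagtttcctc
IFI44, chr1:78649761-78649790, plus strand: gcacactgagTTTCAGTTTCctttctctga
IFI6, chr1:27672266-27672358, minus strand: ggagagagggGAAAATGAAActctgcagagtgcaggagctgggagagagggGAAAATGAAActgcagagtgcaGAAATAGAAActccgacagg
ISG15, chr1:1013374-1013409, plus strand: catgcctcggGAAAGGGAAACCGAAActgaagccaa
IFI27, chr14:94110618-94110660, plus strand: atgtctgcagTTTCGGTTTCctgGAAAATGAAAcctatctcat

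The same letters stood in the 2 members that were higher in the KD-labelled LoVo libraries and in members that were not called there, which are printed for comparison.
DTX3L, chr3:122564322-122564351, plus strand: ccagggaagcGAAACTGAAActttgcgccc
PARP9, chr3:122564322-122564351, minus strand: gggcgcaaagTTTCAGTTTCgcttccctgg
PLSCR1, chr3:146544667-146544696, minus strand: cgggaaccggGAAAAGGAAAccgtgttgtg
PSMB10, chr16:67936852-67936881, minus strand: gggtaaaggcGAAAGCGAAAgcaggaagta
PARP12, chr7:140062942-140062971, minus strand: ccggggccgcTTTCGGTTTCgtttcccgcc
PSMB8, chr6:32844032-32844061, minus strand: gatctgtggcTTTCGCTTTCacttcctcct
DTX3L and PARP9 are transcribed away from each other and share the same match on opposite strands. By the LoVo result below, the letters were in 14 of the 18 members with a window that were called lower, in both called higher, in 12 of the 21 not called and in the 1 member not tested. A match is a description of these letters and not of a bound site, and a window without them says nothing of the factor.

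Total counts ran from 14.46 to 17.23 M per library (M, 1000000 counts). No symbol used here is that of SLERT, so the snoRNA genes at its ends and their host gene were read instead. SNORA5C, which forms an end of SLERT, had 551, 661 and 714 counts in SLERT OE and 4, 4 and 8 counts in the HCT116 controls. In LoVo it had 11, 14 and 12 counts in the libraries labelled SLERT KD and 9, 9 and 19 counts in the controls, with a log2 fold change of -0.02. The host gene TBRG4 had a log2 fold change of 0.07 there, so a fall of SLERT was not visible at this locus, and these libraries are called KD-labelled below. Markers of colon epithelium summed to between 4642 and 8328 normalised counts per 1000000 counts (CPM) in every library, and of 10 only CDX1 was at 0, in HCT116. KRT8 was the largest part of the sum in each group, and other markers of the list were low in HCT116. VIL1 had 17 counts over SLERT OE and 4 over the HCT116 controls, CDH17 had 14 and 30, and KRT20 had 42 and 75. The protocol text speaks of retinas, but the photoreceptor markers RCVRN, GNAT1 and CRX were at 0 in all 6 LoVo libraries, and in HCT116 GNAT1 had 23 counts over SLERT OE and 26 over the controls. RPE65, a marker of retinal pigment epithelium and the highest of the retina list, had 553 counts over SLERT OE and 563 over the HCT116 controls, and 162 counts over the KD-labelled libraries and 119 over the LoVo controls. BEST1 had 128 and 67 counts over the KD-labelled libraries and the LoVo controls, and NRL had 50 and 70.

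The members stood far apart between the lines before any change of SLERT. Levels between genes are compared as FPKM, which are per length of gene and per 1000000 counts. In LoVo controls the highest members were LGALS3BP, a secreted glycoprotein that binds galectins, at 146 ± 7.09 FPKM, and BST2, which tethers budding virus to the cell surface, at 137 ± 12.5 FPKM (SD, n = 3 each). Their ranges overlapped, at 142 to 155 and 123 to 146 FPKM. IFITM3, which blocks viral entry, followed at 92.8 ± 6.24 FPKM and ISG15 at 67.6 ± 2.93 FPKM, with no overlap between them or with the pair above. In HCT116 controls LGALS3BP led at 85.1 ± 3.77 FPKM, followed by ISG15 at 49.4 ± 5.40 FPKM, IFITM3 at 38.3 ± 2.97 FPKM and ADAR, an RNA-editing enzyme, at 36.2 ± 0.78 FPKM. IFITM3 and ADAR overlapped there. BST2 was not among the 8 highest members in either HCT116 group.

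**Figure D1:**
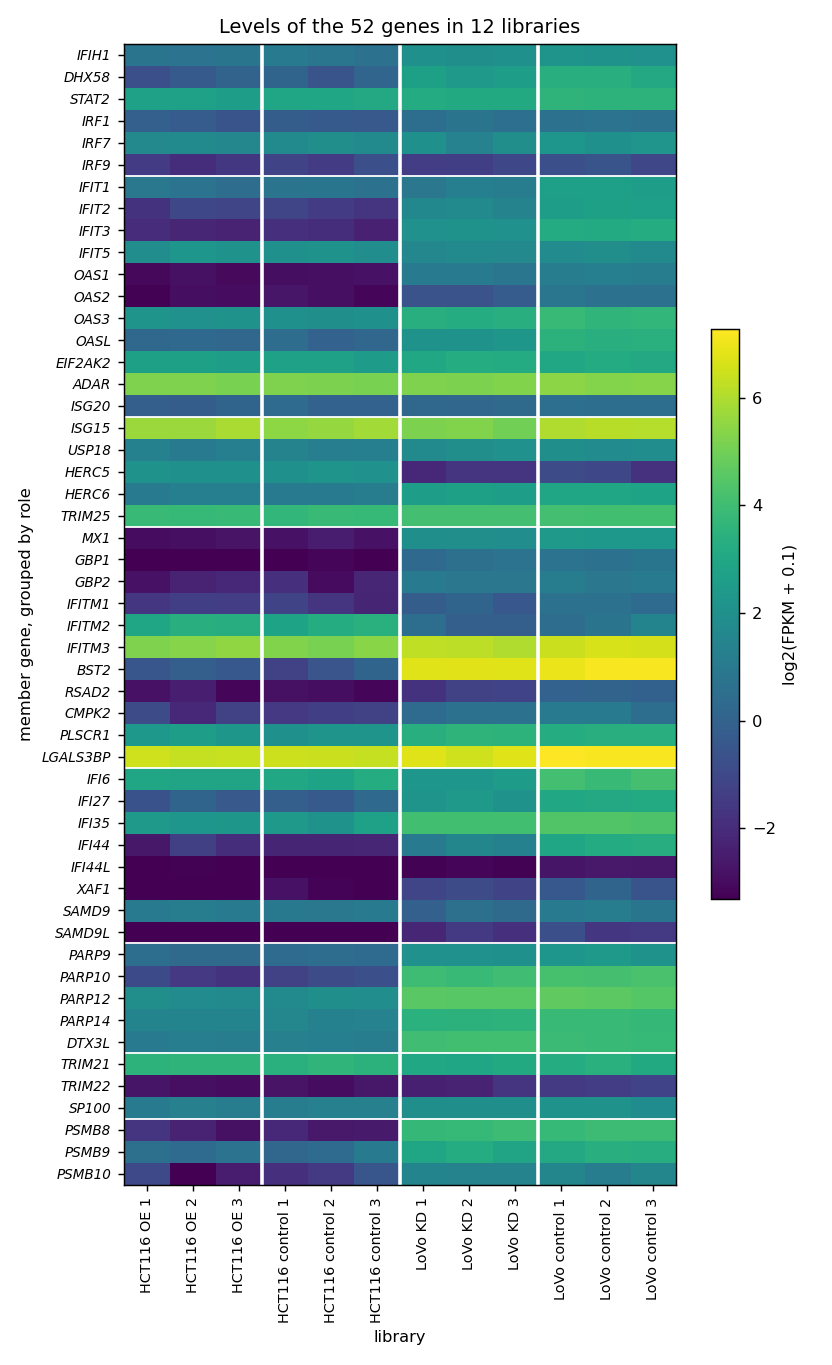
Levels of the 52 members as log2(FPKM + 0.1) in each of the 12 libraries, with genes down the page grouped by role and libraries across in the order SLERT OE, HCT116 control, KD-labelled LoVo and LoVo control, 3 each. Dark rows on the left, such as MX1, OAS1, PSMB8 and GBP1, are genes near 0 in both HCT116 groups and expressed in both LoVo groups.

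With LoVo controls set against HCT116 controls, 42 of the 51 members tested were higher (82.4%, against 39.0% of all 17143 genes tested) and 4 were lower (7.84%, against 39.9%), by edgeR's quasi-likelihood test at an adjusted p under 0.05. The median log2 fold change was 1.88 over the members tested and 0.00 over all genes tested. A member at 0 in HCT116 passes the filter on low counts only through LoVo and had to differ, so these counts describe the members and are no test of them. The lines also carry different constructs, so line and construct cannot be told apart. BST2 had 128, 153 and 152 CPM in LoVo controls, against 0.360, 0.661 and 1.09 CPM in HCT116 controls, and its log2 fold change of 7.69 was the largest among members with more than 1 count in the HCT116 controls (edgeR adjusted p = 4.50e-29). MX1, an antiviral GTPase of the dynamin family, had 86.2, 83.7 and 85.0 CPM in LoVo controls, against 0.839, 1.38 and 0.766 CPM in HCT116 controls. PSMB8, a catalytic subunit of the immunoproteasome, had 44.5, 50.2 and 51.2 CPM in LoVo controls, against 0.479, 0.240 and 0.256 CPM in HCT116 controls. No library of one line reached the other in any of the 3 genes.

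IFIT3, an RNA-binding effector that works with IFIT1, had 43.2, 43.1 and 46.2 CPM in LoVo controls, against 0.899, 0.842 and 0.511 CPM in HCT116 controls. OAS1, which makes the second messenger of the RNA-cutting enzyme RNase L, had 26.9, 28.6 and 26.9 CPM in LoVo controls, against 0.420, 0.481 and 0.575 CPM in HCT116 controls. PARP10, an ADP-ribosyltransferase, had 104, 102 and 108 CPM in LoVo controls, against 2.04, 2.65 and 3.07 CPM in HCT116 controls. All 3 were at most 3.07 CPM in HCT116 controls, and their log2 fold changes were 5.87, 5.80 and 5.35. SAMD9L, an antiviral restriction factor, had 114 counts over the LoVo controls and 0 over the HCT116 controls, at least 40.1-fold higher when a floor of 3 counts is set for the whole HCT116 group. IFI44L had 30 and 0 counts, at least 10.6-fold higher. GBP1, an interferon-inducible GTPase, had 419 counts and 1 count, which gives a ratio of 442 (95% interval of the counts alone 78.9 to 17500).

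The 4 members lower in LoVo controls were of different roles. HERC5, the main human enzyme that attaches ISG15 to proteins, had 1.97, 1.79 and 0.866 CPM in LoVo controls, against 18.9, 21.5 and 19.5 CPM in HCT116 controls, with a log2 fold change of -3.67 (SE 0.18, edgeR adjusted p = 6.10e-18). IFITM2 had 1.97, 2.42 and 4.13 CPM in LoVo controls, against 11.5, 15.3 and 17.1 CPM in HCT116 controls, with a log2 fold change of -2.36. IFITM1 and IFITM2 overlap on the same strand in GENCODE v29 and are near-identical copies with IFITM3, so their reads may be shared or dropped, and their values are uncertain to that extent. TRIM21, an antibody receptor in the cytosol, and IFIT5 were lower by less, at -0.33 and -0.29. The call of IFIT5 was lost without HCT116 control 2 (-0.24) and without LoVo control 3 (-0.25). ADAR, IRF7, IRF9, ISG20 and SAMD9 were not called between the lines, with log2 fold changes from -0.05 to 0.30.

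In the KD-labelled LoVo libraries, the members were lower more often than higher. Of the 51 tested, 25 were called lower (49.0%, against 13.7% of all 16253 genes tested) and 2 were called higher (3.92%, against 12.6%), by edgeR's quasi-likelihood test. The median log2 fold change of the members tested was -0.31, with 45 of 51 below 0, against a median of 0.00 over all genes tested. Taken against the mean of the controls, the medians in the 3 KD-labelled libraries were -0.29, -0.31 and -0.33. In 31 of the members tested every KD-labelled library was lower than every control, against 19.8% of all genes tested, and in 3 every one was higher, against 20.0%. The 2 called higher became 0 without control 3 and 1 without control 1, control 2, KD-labelled 2 or KD-labelled 3. The LoVo controls are those of the comparison between lines, so the pair of comparisons is not independent. In cultures sequenced in bulk, fewer cells expressing a gene and less of its RNA per cell cannot be told apart.

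**Figure D2:**
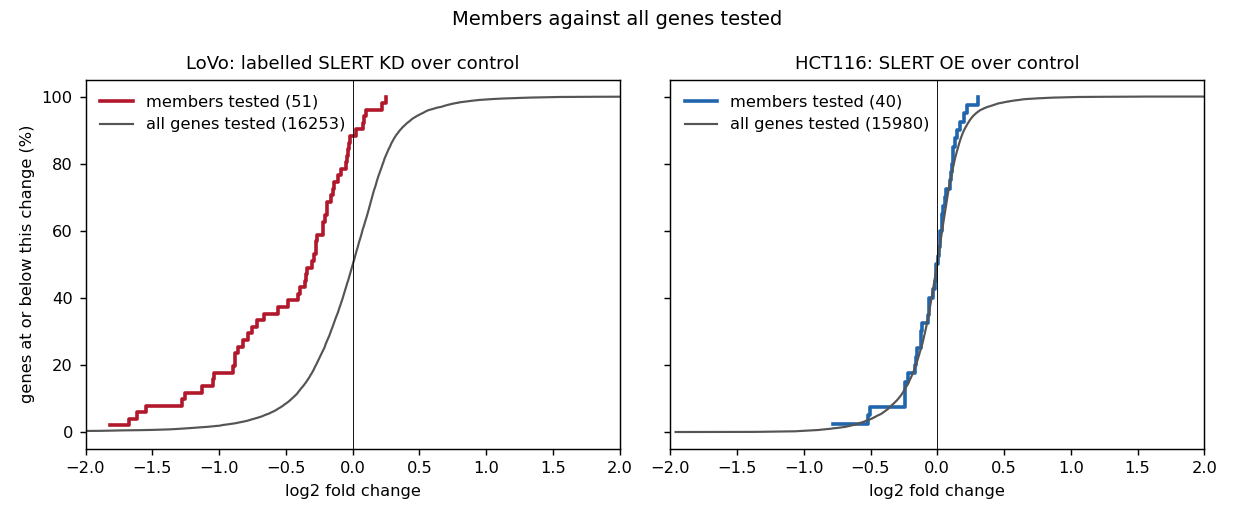
Cumulative share of genes (%) at or below each log2 fold change, for the members tested (coloured) and all genes tested (grey), in LoVo KD-labelled over control on the left and in HCT116 SLERT OE over control on the right. The members' curve lies left of that of all genes in LoVo, where the members' median is -0.31, and along it in HCT116, where the median is 0.00.

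Among the RNA-binding and RNA-cutting effectors, 6 of 11 were called lower (54.5%, against 13.7% of all genes tested) and none higher (against 12.6%). OASL, a relative of the OAS enzymes that makes no messenger and strengthens RNA sensing, had 26.2, 25.2 and 29.0 CPM in the KD-labelled libraries, against 65.8, 61.7 and 64.0 CPM in LoVo controls, and its log2 fold change was -1.25 (SE 0.08, edgeR adjusted p = 4.83e-11). IFIT1, which binds viral RNA ends, had 8.03, 10.2 and 9.54 CPM in the KD-labelled libraries, against 27.1, 27.4 and 26.6 CPM in LoVo controls, with a log2 fold change of -1.55 (SE 0.11, edgeR adjusted p = 3.10e-10). IFIT3, its partner, had 20.1, 21.0 and 19.5 CPM in the KD-labelled libraries, against 43.2, 43.1 and 46.2 CPM in LoVo controls, with a log2 fold change of -1.13 (SE 0.08, edgeR adjusted p = 6.56e-10). No KD-labelled library reached a control in these genes, and the fitted levels in the controls were 2.39, 2.93 and 2.19 times those in the KD-labelled libraries.

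IFIT2 had 12.6, 13.5 and 10.8 CPM in the KD-labelled libraries, against 23.8, 26.0 and 26.2 CPM in LoVo controls, with a log2 fold change of -1.04 (SE 0.11, edgeR adjusted p = 1.24e-07). OAS2 had 6.22, 6.06 and 8.18 CPM in the KD-labelled libraries, against 18.2, 15.8 and 15.5 CPM in LoVo controls, with a log2 fold change of -1.28 (SE 0.14, edgeR adjusted p = 2.39e-07). OAS3, which makes the longer chains that activate RNase L, had 174, 163 and 172 CPM in the KD-labelled libraries, against 236, 211 and 221 CPM in LoVo controls, with a log2 fold change of -0.40 (SE 0.06, edgeR adjusted p = 4.39e-05). The groups did not overlap in these either, with fitted control levels 2.06, 2.43 and 1.32 times those in the KD-labelled libraries. OAS1 (-0.22), IFIT5 (-0.14), the translation-blocking kinase EIF2AK2 (0.10), ADAR (-0.11) and the exonuclease ISG20 (-0.27) were not called.

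The neighbouring genes differed in size of change. The OAS genes lie side by side on chromosome 12 in GRCh38, with OAS1 at 112906777 to 112933222, OAS3 at 112938352 to 112973249 and OAS2 at 112978395 to 113011723, all on the plus strand. Of these, OAS2 was lower by 1.28 on the log2 scale and OAS1 was not called. The IFIT genes lie on chromosome 10 between 89283694 and 89421001 in the order IFIT2, IFIT3, IFIT1 and IFIT5, and the first 3 were called lower whereas IFIT5 was not. A test of the difference between neighbours was not run. GENCODE v29 annotates a gene on the opposite strand over 24 of the 52 members, and over 14 of the 25 called lower, among them LIPA over IFIT1, IFIT2 and IFIT3. The sources used here do not state the use of strand in counting, and reads of such pairs may be mixed.

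Among the sensors and transcription factors, 2 of 6 were called lower (33.3%, against 13.7% of all genes tested) and none higher (against 12.6%). DHX58, a helicase that tunes sensing of viral RNA, had 24.2, 19.0 and 22.2 CPM in the KD-labelled libraries, against 36.7, 36.0 and 30.3 CPM in LoVo controls, with a log2 fold change of -0.66 (SE 0.10, edgeR adjusted p = 3.71e-05). STAT2, a partner of IRF9 in the factor that binds the GAAA repeat, had 84.2, 78.0 and 78.2 CPM in the KD-labelled libraries, against 105, 101 and 102 CPM in LoVo controls, with a log2 fold change of -0.36 (SE 0.06, edgeR adjusted p = 0.000245). Neither overlapped between the groups. IRF9, at 1.81 to 2.47 CPM against 2.33 to 3.57 CPM in LoVo controls, had a log2 fold change of -0.56 and was not called (edgeR adjusted p = 0.108). IRF7 (-0.34), the RNA sensor IFIH1 (-0.08) and IRF1 (-0.05) were not called.

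ISG15 itself had 30.9, 32.8 and 27.4 CPM in the KD-labelled libraries, against 52.7, 57.4 and 57.7 CPM in LoVo controls, with a log2 fold change of -0.88 (SE 0.08, edgeR adjusted p = 2.72e-08), and the groups did not overlap. Of the other members grouped with it, HERC6 was called lower by 0.22 on the log2 scale, a call lost without any 1 of 5 of the 6 libraries (-0.25 to -0.20). HERC5 (-0.86, edgeR adjusted p = 0.102) was low, at 0.602 to 0.974 CPM in KD-labelled libraries and 0.866 to 1.97 CPM in LoVo controls. USP18, which removes ISG15 and dampens the receptor (0.09), and the ubiquitin ligase TRIM25 (0.07) were not called.

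Among the GTPases and membrane effectors, 6 of 11 were called lower (54.5%, against 13.7% of all genes tested) and 1 higher (9.09%, against 12.6%). RSAD2, viperin, an enzyme that makes a chain-terminating nucleotide, had 1.07, 1.82 and 1.88 CPM in the KD-labelled libraries, against 4.83, 5.10 and 4.80 CPM in LoVo controls, with a log2 fold change of -1.62 (SE 0.24, edgeR adjusted p = 2.09e-05). It overlaps CMPK2, a mitochondrial nucleotide kinase on the opposite strand, at their starts on chromosome 2, and CMPK2 was not called (-0.27). LGALS3BP had 368, 305 and 358 CPM in the KD-labelled libraries, against 501, 466 and 468 CPM in LoVo controls, with a log2 fold change of -0.48 (SE 0.06, edgeR adjusted p = 7.63e-06). MX1 had 66.2, 64.0 and 62.3 CPM in the KD-labelled libraries, against 86.2, 83.7 and 85.0 CPM in LoVo controls, with a log2 fold change of -0.41 (SE 0.07, edgeR adjusted p = 6.70e-05). RSAD2, LGALS3BP and MX1 had no overlap between groups, and the level of MX1 in KD-labelled libraries was still far above that in HCT116. IFITM3 (-0.35) and BST2 (-0.31) were called lower by less.

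IFITM2 was called lower at -0.88, but its groups overlapped at 1.27 to 2.07 CPM against 1.97 to 4.13 CPM in LoVo controls. Its call was lost without control 3 (-0.51), KD-labelled 2 (-0.75) or KD-labelled 3 (-0.77), as well as with DESeq2. IFITM1 (-0.76) was not called. PLSCR1, a phospholipid scramblase that also enters the nucleus, was called higher, with 43.9, 49.2 and 47.9 CPM in the KD-labelled libraries, against 38.1, 41.7 and 40.9 CPM in LoVo controls and a log2 fold change of 0.22 (SE 0.08, edgeR adjusted p = 0.0375). All KD-labelled libraries lay above all controls, yet the call was lost without any 1 control (0.19, 0.25 and 0.23 without controls 1, 2 and 3), without KD-labelled 2 (0.19) and without KD-labelled 3 (0.21). GBP1 (-0.14, 95% interval -0.43 to 0.15) and GBP2 (-0.04, -0.29 to 0.20) were not called.

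**Figure D3:**
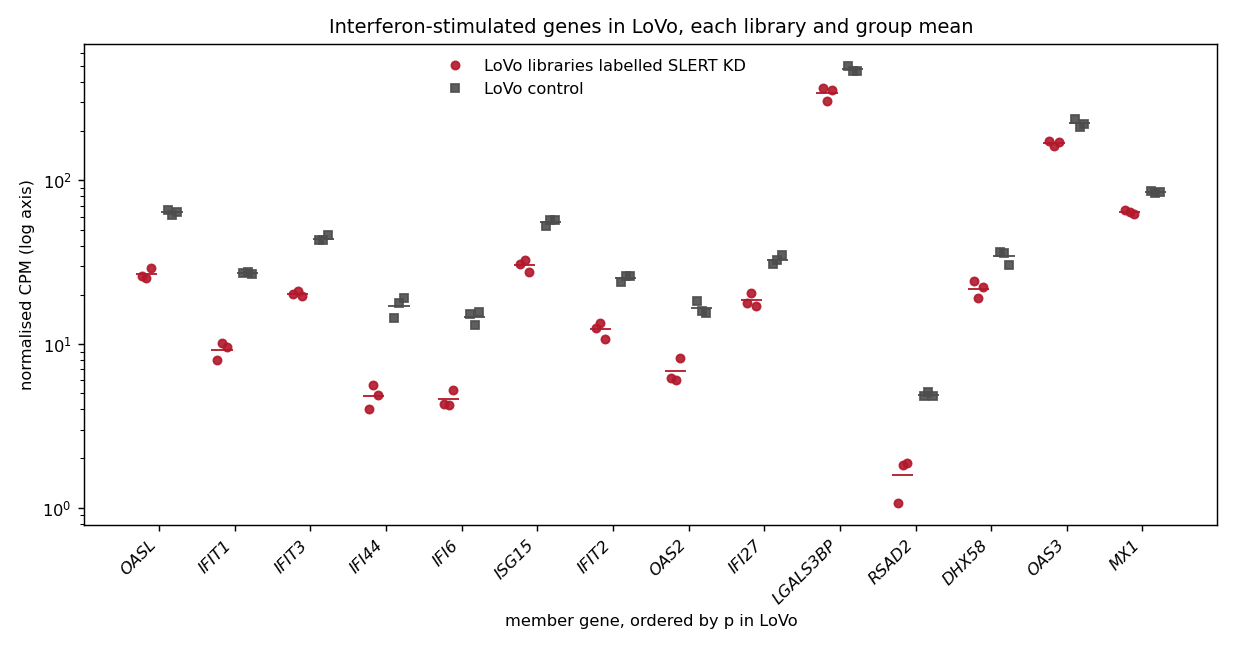
Normalised CPM (log axis) of the 14 members with the smallest p in LoVo, with KD-labelled libraries as circles left of LoVo controls as squares, 3 each, and a bar at each group mean. In each of the 14 genes all 3 KD-labelled libraries lie below all 3 controls, with OASL at 26.2, 25.2 and 29.0 CPM against 65.8, 61.7 and 64.0 CPM.

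The IFI genes, XAF1 and the SAMD9 pair held the largest changes. Of the 7 tested, 6 were called lower (85.7%, against 13.7% of all genes tested). IFI44, a cytoplasmic protein, had 4.01, 5.63 and 4.87 CPM in the KD-labelled libraries, against 14.4, 17.9 and 19.1 CPM in LoVo controls, with a log2 fold change of -1.82 (SE 0.15, edgeR adjusted p = 3.22e-09). IFI6, a small hydrophobic membrane protein, had 4.28, 4.24 and 5.26 CPM in the KD-labelled libraries, against 15.2, 13.0 and 15.7 CPM in LoVo controls, with a log2 fold change of -1.68 (SE 0.14, edgeR adjusted p = 7.62e-09). IFI27, its relative, had 17.9, 20.5 and 17.2 CPM in the KD-labelled libraries, against 30.8, 32.5 and 34.8 CPM in LoVo controls, with a log2 fold change of -0.82 (SE 0.09, edgeR adjusted p = 9.36e-07). All KD-labelled libraries lay below all controls, and the fitted control levels were 3.52, 3.20 and 1.76 times those in the KD-labelled libraries.

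IFI44L, the neighbour of IFI44 on chromosome 1, fell under the filter on low counts, with 4 counts over the KD-labelled libraries and 30 over the LoVo controls. Its ratio of LoVo control to KD-labelled counts was 7.57 (95% interval of the counts alone 2.67 to 29.6), and without the filter its log2 fold change was -2.81 (edgeR adjusted p = 0.00777). SAMD9 was called lower (-0.72), as were XAF1, which binds the apoptosis inhibitor XIAP (-0.89), and IFI35, a leucine-zipper protein (-0.28). The call of XAF1 was lost without control 2 (-0.65), and that of IFI35 without control 1 (-0.26) or KD-labelled 3 (-0.27). On both FPKM scales, log2(FPKM + 1) and log2(FPKM + 0.1), the calls of SAMD9 and XAF1 were lost. SAMD9L, at 0.936 to 1.94 CPM against 1.66 to 3.75 CPM in LoVo controls, was not called (-0.78).

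Of the PARP and DTX3L enzymes, which add or partner the addition of ADP-ribose, 2 of 5 were called lower and 1 higher. These shares are 40.0% and 20.0%, against 13.7% and 12.6% of all genes tested. PARP14 was lower (-0.29), and PARP10 was lower (-0.20), a call lost without control 1 (-0.20), control 2 (-0.22), control 3 (-0.18) or KD-labelled 2 (-0.13). DTX3L, a ubiquitin ligase, was higher, with 91.8, 93.8 and 94.5 CPM in the KD-labelled libraries, against 81.5, 78.5 and 75.3 CPM in LoVo controls and a log2 fold change of 0.25 (SE 0.06, edgeR adjusted p = 0.00627), and the call was lost without control 3 (0.22). Its partner PARP9, which shares its promoter, was not called, at -0.19 (edgeR adjusted p = 0.0888). PARP12 (-0.02, 95% interval -0.15 to 0.11) was not called. DTX3L and PARP9 overlap on opposite strands, so their counts may share reads.

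Of the TRIM and nuclear body proteins, TRIM22, an antiviral ubiquitin ligase, was lower (-1.04), at 1.14 to 2.60 CPM against 2.99 to 4.13 CPM in LoVo controls. Its call was lost without control 3 (-0.90) and on both FPKM scales. TRIM21 (-0.19) and the nuclear body protein SP100 (-0.03) were not called. None of the 3 immunoproteasome subunits was called. PSMB8 had 45.3, 46.5 and 51.6 CPM in the KD-labelled libraries, against 44.5, 50.2 and 51.2 CPM in LoVo controls, with a 95% interval of the log2 fold change from -0.19 to 0.14. PSMB9 (-0.16, -0.37 to 0.05) and PSMB10 (0.03, -0.36 to 0.42) also overlapped between the groups. The intervals of these 3, of GBP1 and GBP2 and of IRF1 (-0.26 to 0.17) lay wholly above the change of IFIT2 (-1.04), which was among the larger falls. Smaller called falls lay inside some of them, such as STAT2 (-0.36) in that of PSMB9 and OAS3 (-0.40) in that of GBP1. The intervals therefore do not set these genes apart from the members called lower by less.

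**Figure D4:**
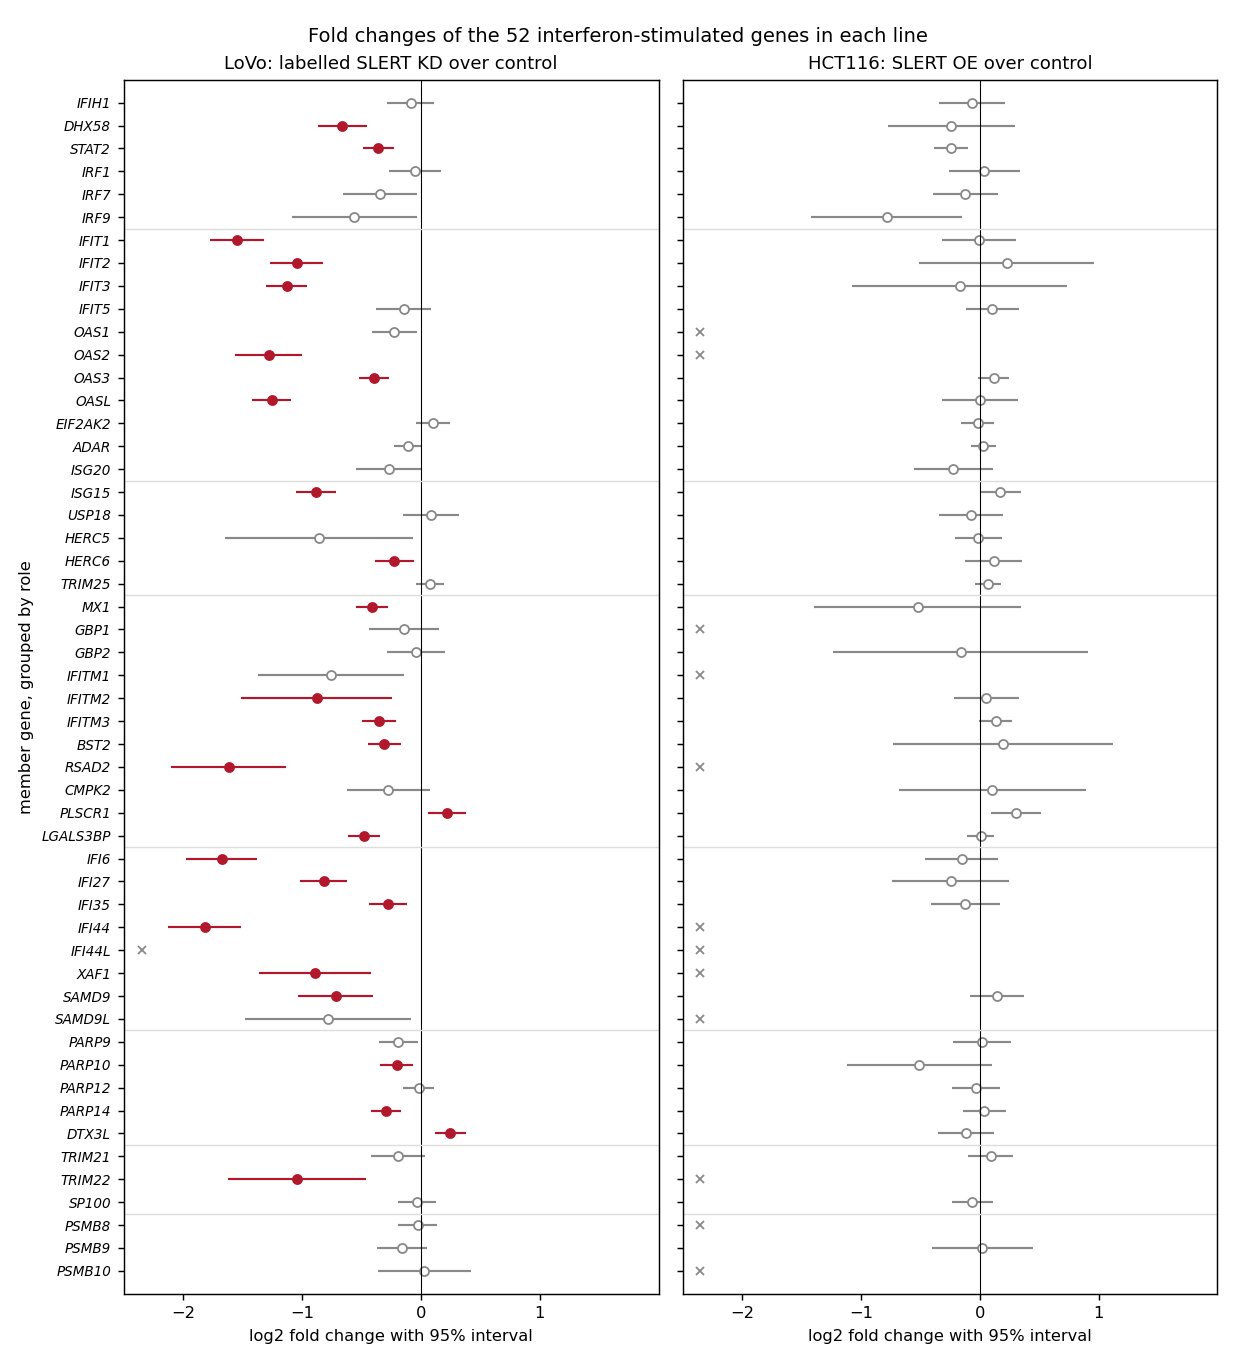
Log2 fold changes with 95% intervals for the 52 members, grouped by role and separated by grey lines, in LoVo KD-labelled over control on the left and HCT116 SLERT OE over control on the right. Filled points passed the edgeR test at an adjusted p under 0.05, open points did not, and crosses at the left edge mark members under the filter on low counts. In LoVo 25 points are filled below 0 and 2 above, and in HCT116 no point is filled.

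Across these changes, marker levels of other cell types moved in LoVo too. The 15 leukocyte markers summed to between 3.82 and 4.95 CPM in KD-labelled libraries and between 5.73 and 7.69 CPM in LoVo controls, with CD3E, CD3D, CD2 and MS4A1 at 0 in both groups. Of the list, LYZ had 104 counts over the KD-labelled libraries and 120 over the LoVo controls and was not called. CORO1A had 51 and 117 counts and was called lower (-1.20 on the log2 scale), and PTPRC had 5 and 13 counts. The 12 fibroblast and endothelial markers summed to between 3.82 and 5.28 CPM and between 15.1 and 16.3 CPM, with COL1A2, CDH5 and KDR at 0 in both groups. COL3A1 alone held 97 counts over the KD-labelled libraries and 571 over the LoVo controls. Epithelial markers summed to between 6752 and 7362 CPM and between 7787 and 8328 CPM. KRT8 was the largest part, at a mean of 3871 CPM in KD-labelled libraries and 4833 CPM in LoVo controls. The list moved both ways on the log2 scale. EPCAM (0.42) and CDH17 (0.78) were called higher. KRT8 (-0.32), KRT18 (-0.16), KRT19 (-0.32), KRT20 (-1.08), VIL1 (-0.54) and CDX2 (-0.48) were called lower, and CDH1 and CDX1 were not called. The part of all these markers in the result was not tested.

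In HCT116 with SLERT OE, 40 of the 52 members passed the filter and none was called in either direction by edgeR's quasi-likelihood test, against 0.507% of all 15980 genes tested called higher and 0.407% called lower. At an unadjusted p under 0.05 there were 3 of the 40, but the share of all genes at that threshold was not counted, so the 3 are no result. DESeq2 and limma voom also called 0. The replicate block did call STAT2 and PLSCR1, as given in the last paragraph. The median log2 fold change was 0.00, with 20 members below 0 and 20 above. The members with the smallest p were STAT2, PLSCR1 and IRF9. STAT2 had 63.7, 64.3 and 58.5 CPM in SLERT OE, against 71.7, 69.4 and 80.0 CPM in HCT116 controls, with a log2 fold change of -0.24 (SE 0.07, edgeR adjusted p = 0.0895). PLSCR1 had 21.8, 26.3 and 21.7 CPM in SLERT OE, against 17.6, 19.5 and 19.7 CPM in HCT116 controls, with a log2 fold change of 0.31 (SE 0.10, edgeR adjusted p = 0.134). IRF9 had 1.71, 1.07 and 1.58 CPM in SLERT OE, against 2.34, 1.80 and 3.38 CPM in HCT116 controls, with a log2 fold change of -0.78 (SE 0.31, edgeR adjusted p = 0.224). The groups did not overlap in any of the 3, but neither did those of 9.90% of all genes tested with all OE libraries lower and 9.14% with all higher.

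Several of the members that were lower in LoVo could not be read in HCT116. IFI44 had 17 counts over the 3 SLERT OE libraries and 12 over the HCT116 controls, OAS2 had 12 and 20, RSAD2 had 13 and 8, and XAF1 had 0 and 6. Where the level allowed a test, IFIT1 had 8.54, 7.28 and 6.24 CPM in SLERT OE, against 7.67, 7.69 and 6.90 CPM in HCT116 controls, and the 95% interval of its log2 fold change ran from -0.32 to 0.30. IFI6 had 7.21, 6.91 and 6.99 CPM in SLERT OE, against 7.73, 6.73 and 9.07 CPM in HCT116 controls, with an interval from -0.46 to 0.16. ISG15 had 46.2, 46.7 and 55.7 CPM in SLERT OE, against 39.7, 43.3 and 49.1 CPM in HCT116 controls, with a log2 fold change of 0.17 (SE 0.09, edgeR adjusted p = 0.351). A change of the size seen in LoVo lay outside these intervals for IFIT1 and IFI6. SAMD9L was at 0 in all 6 HCT116 libraries, which leaves room for at most 3 counts per group.

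The responses to more SLERT by label were then set against each other in 1 fit of all 12 libraries, as the change from control to OE in HCT116 less the change from KD to control in LoVo. Each value is therefore negative where the LoVo control exceeds the KD-labelled libraries by more than OE exceeds control in HCT116. Of 51 members tested, 15 were called lower (29.4%, against 7.61% of all 18199 genes tested) and 1 higher (1.96%, against 6.94%). IFI6 (difference -1.83, edgeR adjusted p = 4.19e-07), IFIT1 (-1.56, 6.54e-07), OASL (-1.25, 2.39e-06), STAT2 (-0.60, 5.57e-05), ISG15 (-0.71, 0.000263), LGALS3BP (-0.47, 0.000583) and IFI27 (-1.06, 0.00266) were called in all 20 alternatives tried. IFIT3 (-1.30) was lost without HCT116 control 1 (-1.15), and PLSCR1, the 1 called higher (0.53, edgeR adjusted p = 0.00483), was lost only on the log2(FPKM + 0.1) scale. The calls of DHX58 (-0.90), IRF9 (-1.34), OAS2 (-1.92), OAS3 (-0.28), MX1 (-0.94), SAMD9 (-0.57) and XAF1 (-4.92) were each lost without at least 4 of the 12 libraries in turn. The weakest of these values were -0.69, -1.06 and -1.38 for DHX58, IRF9 and OAS2 without SLERT OE 1, HCT116 control 3 and HCT116 control 1. They were -0.23, -0.62, -0.40 and -3.18 for OAS3, MX1, SAMD9 and XAF1 without LoVo control 1, HCT116 control 2, KD-labelled 1 and HCT116 control 1. Without SLERT OE 2, 9 members were called lower. The value of XAF1 rests on 0 counts in SLERT OE and 6 in the HCT116 controls, depends on how a 0 is treated and sets no size, and that of OAS2 rests on 12 and 20 counts. As these values use the libraries of the comparisons within each line, they are not separate evidence of them.

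The ligands of the pathway were almost absent. Of 21 interferon genes, 14 had 0 counts in all 12 libraries, 6 had 1 to 10 counts in all, and only IFNE, a type I interferon of epithelia, had more. IFNE had 61 counts over the KD-labelled libraries and 49 over the LoVo controls, with a log2 fold change of 0.30 that was not called (edgeR adjusted p = 0.579). It had 13 counts over SLERT OE and 17 over the HCT116 controls. A count of 0 allows up to 3 counts over a group.

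Of the 6 receptor chains, only IFNGR1, the ligand-binding chain for interferon gamma, was called in LoVo (16.7% lower, against 13.7% of all genes tested). Its log2 fold change was -0.17 (edgeR adjusted p = 0.0346), a call lost without any 1 of 5 of the 6 libraries (-0.18 to -0.15). IFNAR1 had 47.4, 56.8 and 50.5 CPM in the KD-labelled libraries, against 49.0, 52.6 and 53.6 CPM in LoVo controls, with a log2 fold change of -0.01. JAK1 (0.11) was not called. TYK2, the kinase bound to IFNAR1, was lower, with 113, 87.6 and 103 CPM in the KD-labelled libraries, against 128, 123 and 127 CPM in LoVo controls and a log2 fold change of -0.32 (SE 0.07, edgeR adjusted p = 0.00257). The call of TYK2 was lost on both FPKM scales. JAK2, a kinase of the interferon gamma receptor, was higher (0.38, lost without control 1 at 0.29 and KD-labelled 3 at 0.33), and STAT3, a factor of many cytokines, was lower (-0.21, lost without control 1 at -0.18 and control 3 at -0.21).

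Among 12 inhibitors of signalling, 4 were lower (33.3%, against 13.7% of all genes tested) and 3 higher (25.0%, against 12.6%) in LoVo. SOCS2, a suppressor of cytokine signalling, had 22.9, 22.7 and 23.5 CPM in the KD-labelled libraries, against 13.8, 15.6 and 11.3 CPM in LoVo controls, with a log2 fold change of 0.76 (SE 0.11, edgeR adjusted p = 2.37e-05). PIAS3, an inhibitor of STAT3 (-0.53), and the phosphatases PTPN1 (-0.34) and PTPN6 (-0.36) were lower. Of 16 genes that sense nucleic acid upstream of interferon, 14 were tested and 3 were lower (21.4%, against 13.7% of all genes tested). RIGI, which senses short viral RNA and is itself induced by interferon, had 2.81, 3.39 and 2.92 CPM in the KD-labelled libraries, against 5.65, 5.10 and 5.80 CPM in LoVo controls, with a log2 fold change of -0.86 (SE 0.19, edgeR adjusted p = 0.00151). The call of RIGI was lost on both FPKM scales. IRF3, the factor that induces interferon beta, was lower (-0.25, lost without control 3 at -0.21), as was its kinase IKBKE (-0.37, lost without any 1 of 5 libraries at -0.40 to -0.28).

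A further list of 45 interferon-stimulated genes was read as well. Of 38 tested in LoVo, 13 were lower (34.2%, against 13.7% of all genes tested) and 3 higher (7.89%, against 12.6%). Their median log2 fold change was -0.19. ZC3HAV1, which binds viral RNA for decay, had 108, 106 and 106 CPM in the KD-labelled libraries, against 150.1, 144 and 147 CPM in LoVo controls, with a log2 fold change of -0.47 (SE 0.06, edgeR adjusted p = 3.47e-06). LY6E, a membrane-anchored protein that blocks coronavirus entry, was lower (-0.49), as were the helicases HELZ2 (-0.63) and ZNFX1 (-0.43). Of 19 genes of antigen presentation, 18 were tested and 7 were lower (38.9%, against 13.7% of all genes tested), with none higher (against 12.6%). CD74, the MHC class II invariant chain, had 2.54, 2.67 and 2.27 CPM in the KD-labelled libraries, against 16.4, 13.8 and 14.9 CPM in LoVo controls, with a log2 fold change of -2.59 (SE 0.16, edgeR adjusted p = 2.10e-11). HLA-DRA, an MHC class II chain, had 0.201, 0.303 and 0.455 CPM in the KD-labelled libraries, against 3.69, 3.89 and 3.20 CPM in LoVo controls. CIITA, the transactivator of MHC class II genes, had 3.88, 3.57 and 5.19 CPM in the KD-labelled libraries, against 8.13, 9.89 and 11.1 CPM in LoVo controls, with a log2 fold change of -1.20 (SE 0.17, edgeR adjusted p = 1.65e-05). The groups did not overlap in these 3 genes, which leukocytes also express, and the leukocyte marker sums are given above. The call of CIITA was lost on both FPKM scales. HLA-C, an MHC class I chain, was lower by less (-0.44), and its reads may be shared with other HLA genes.

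Over all 124 pathway genes outside the members, 94 were tested in LoVo, where 30 were called lower (31.9%) and 7 higher (7.45%), beside the 13.7% and 12.6% of all genes. The 7 became 3 without KD-labelled 3 and 4 without control 1 or control 3. In HCT116, 86 were tested, and 1 was called lower (1.16%, against 0.407% of all genes tested) and none higher (against 0.507%). That gene was TRIM38, a ubiquitin ligase that restrains innate signalling, with 23.5, 27.6 and 26.2 CPM in SLERT OE, against 31.7, 34.4 and 32.7 CPM in HCT116 controls and a log2 fold change of -0.35 (SE 0.09, edgeR adjusted p = 0.0433). The groups did not overlap, but 9.90% of all genes tested also had all OE libraries lower. The call was lost whichever of the 6 libraries was left out, at -0.40 to -0.29.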

How the data were processed

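Read counts per Ensembl gene were used as deposited, whole numbers without normalisation as the values show, and the deposited FPKM table holds FPKM that followed from those counts. The submitters' processing notes name HISAT2 2.1.0 and GRCh38. Counter, annotation release and use of strand: not given in the sources used here. The HCT116 control columns are headed as empty vector, and this is the least certain mapping.

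Counts were tested with edgeR 4.0.16 in R 4.3.3 (quasi-likelihood F test, TMM, filterByExpr), with Benjamini-Hochberg adjustment over all genes tested and calls at an adjusted p under 0.05. CPM are on 1 TMM scale over the 12 libraries. Floors are 3 counts over a group. Scripts were tested on simulated counts. The members, gene lists and tests were chosen with earlier results of these data known. Values in every library are given for at most the 14 called members with the smallest p per comparison, and members not called were given where they complete a role. Up to 4 genes of a pathway list were named by p. Alternatives were RLE and upper quartile factors, DESeq2 1.42.0, limma voom 3.58.1, no filter, log2(FPKM + 1) and log2(FPKM + 0.1) in limma with a mean FPKM of at least 0.1, a replicate block, all 12 libraries in 1 fit, and leaving out each library.

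Within groups, libraries differed by more than sampling noise, so none was merged as a library deposited again. This does not show that they are independent cultures. Coordinates are from GENCODE v29 (genes) and RefSeq (promoter windows).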

Additional observations from a re-analysis of the deposited data

Results flagged for a closer look

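Each gene below was called for a difference between the lines in its change with more SLERT by label, in 1 edgeR fit of all 12 libraries at an adjusted p under 0.05. Values are the log2 change from control to OE in HCT116 less that from KD-labelled to control in LoVo.

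Among the members, the difference was -0.90 for DHX58, -0.60 for STAT2, -1.34 for IRF9, -1.56 for IFIT1, -1.30 for IFIT3, -1.92 for OAS2, -0.28 for OAS3 and -1.25 for OASL. It was -0.71 for ISG15, -0.94 for MX1, 0.53 for PLSCR1, -0.47 for LGALS3BP, -1.83 for IFI6, -1.06 for IFI27, -4.92 for XAF1 and -0.57 for SAMD9. The calls of DHX58, IRF9, OAS2, OAS3, MX1, SAMD9 and XAF1 were each lost in 6 to 13 of the 20 alternatives. The value of XAF1 rests on few counts in HCT116 and sets no size.

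Among the signalling genes, the difference was 0.54 for JAK2, -0.39 for TYK2, -0.34 for STAT3, 0.82 for SOCS2, -0.62 for PIAS3 and -0.47 for PTPN6. Among the sensors it was -1.12 for RIGI and -0.40 for IRF3. Among further interferon-stimulated genes it was -0.42 for TRIM38, -0.77 for HELZ2, -0.42 for ZNFX1, -0.37 for LY6E and -0.38 for ZC3HAV1. For antigen presentation it was -2.15 for CD74, -3.71 for HLA-DRA and -0.40 for HLA-C.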

How the results depend on the processing

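The 25 members called lower in LoVo became 19 on both FPKM scales, 29 with the replicate block and 22 to 27 with a library left out. Of the 27 members called there, 18 kept the call in all 15 alternatives and 19 in every one that left out a library, and none of 405 values changed sign. The 2 called higher became 1 with DESeq2, 1 without the filter, 0 on both FPKM scales and 0 to 2 with a library left out. The 7 other pathway genes called higher in LoVo became 1 on each FPKM scale and 3 to 8 with a library left out. In HCT116 the 1 other pathway gene called lower became 2 with DESeq2, 0 on both FPKM scales and 0 (lowest and highest) with a library left out. Between the lines' controls, 44 of 46 members kept the call in every alternative, and the 4 called lower became 2 on both FPKM scales. For the difference between lines, the 1 called higher became 0 on the log2(FPKM + 0.1) scale, and the 15 called lower became 9 to 16 with a library left out. The cause of these shifts was not tested.

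Same-numbered libraries had small correlations of their deviations, from 0.0019 to 0.0617. In LoVo, those of differently numbered libraries ran from -0.0536 to 0.0014. Each of the 6 LoVo libraries correlated best with its own number, and 1 of the 6 did so in HCT116. Whether the numbers pair the samples is therefore not settled, and the main fits use no pairing. With the replicate block, 1 member was called higher in HCT116 (PLSCR1, 0.30, edgeR adjusted p = 0.0250) and 1 lower (STAT2, -0.24, edgeR adjusted p = 0.00322), 3 other pathway genes were called lower there, and 20 members were called lower in the difference. Depth limits the 12 members under the filter in HCT116, where a change could not be read.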
